A study of Mus musculus with 6 samples.

Results

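Predicted mouse genes whose symbols are Gm followed by digits were analysed here where they lie on chromosomes 1 to 19, have 1 exon in every transcript, and have transcripts of at least 200 nt. Genes Gm28437, Gm28661, Gm29216 and Gm10925 were left out by name. This gave 10737 of the 49203 named genes in the deposited tables, and the choice used no expression value. Levels came from total RNA of cells labelled as Sertoli cells, the somatic cells of the seminiferous tubule that nurse the germ cells. There were 6 libraries, 3 (numbered 2, 4 and 7) from lines that show a Y-chromosomal reporter of green fluorescent protein (GFP) and 3 (numbered 9, 11 and M) from lines that do not. The labels state no strain, age or treatment for either group, and they do not state how many separate cultures or animals stand behind the replicates. Each p-value therefore rests on the spread among these libraries alone, and that spread may be technical. Levels of predicted genes were compared between the 2 groups.

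Gene models of this kind are of mixed origin. A processed pseudogene arises when the spliced mRNA of a gene is copied back into DNA and inserted elsewhere, so it has no introns and resembles the mRNA of its source gene. Highly expressed housekeeping genes, above all those for ribosomal proteins, have left many such copies in the mouse genome. Another large class, labelled TEC in the annotation because its members still await experimental proof, consists of unspliced stretches defined from transcript evidence alone, many of them inside the introns of longer genes. A short read from a near-identical copy cannot always be assigned to its true origin, and a read from an unspliced precursor RNA cannot be told from one of a gene model inside the intron.

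Sequences of genes in these 2 situations are given first, chosen from the genes described below. They are the GENCODE M21 transcripts with the same identifier and the same length, written 5′ to 3′, and capitals mark the bases at which a Gm gene and its source gene differ. Positions on chromosomes are mm39, as deposited. Each source stretch is coding sequence, numbered from the first base of the start codon, and each Gm stretch is numbered from the first base of its own transcript. Rpl21 encodes a protein of the large ribosomal subunit. Gm10240 (chr15:68181668-68182150, plus strand, 483 nt), Gm13370 (chr2:24875996-24876478, plus strand, 483 nt) and Gm10163 (chr9:88272890-88273370, plus strand, 481 nt) each differed from it at 2 bases, both in the stretch from base 324 to base 443. No base differed among the 3 copies over their shared length, so 1 of them stands for all.
Rpl21: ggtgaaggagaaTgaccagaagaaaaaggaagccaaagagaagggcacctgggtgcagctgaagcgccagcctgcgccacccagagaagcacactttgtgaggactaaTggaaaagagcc
Gm10240: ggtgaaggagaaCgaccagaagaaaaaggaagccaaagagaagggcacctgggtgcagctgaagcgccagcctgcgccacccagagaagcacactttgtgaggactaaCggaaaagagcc

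Rpl26 encodes another protein of the large ribosomal subunit. Its copy Gm15772 (chr5:3286431-3286868, plus strand, 438 nt) was the processed pseudogene with the highest mean level, and 1 of its 2 differing bases lies in the stretch from base 117 to base 236.
Rpl26: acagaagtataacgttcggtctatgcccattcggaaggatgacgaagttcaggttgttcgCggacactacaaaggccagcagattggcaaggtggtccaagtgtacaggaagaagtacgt
Gm15772: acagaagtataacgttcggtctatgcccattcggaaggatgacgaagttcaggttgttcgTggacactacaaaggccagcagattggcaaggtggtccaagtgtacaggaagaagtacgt

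Cycs encodes cytochrome c, which carries electrons in the respiratory chain. Gm10108 (chr5:13171415-13171733, minus strand, 319 nt) differed from it at 2 bases, both within the first 120 coding bases.
Cycs: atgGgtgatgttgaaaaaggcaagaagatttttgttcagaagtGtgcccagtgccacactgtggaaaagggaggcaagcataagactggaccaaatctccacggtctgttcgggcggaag
Gm10108: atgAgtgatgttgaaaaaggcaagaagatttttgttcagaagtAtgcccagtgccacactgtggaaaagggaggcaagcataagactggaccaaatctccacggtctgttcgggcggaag

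Gm28438 (chr1:24651856-24652200, minus strand, 345 nt) is a nuclear copy of a mitochondrial gene, mt-Nd3, which encodes a subunit of respiratory complex I. The first 120 bases hold the only base of the transcript at which it differs.
mt-Nd3: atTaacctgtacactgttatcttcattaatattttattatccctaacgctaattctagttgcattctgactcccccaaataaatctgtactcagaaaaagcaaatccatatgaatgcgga
Gm28438: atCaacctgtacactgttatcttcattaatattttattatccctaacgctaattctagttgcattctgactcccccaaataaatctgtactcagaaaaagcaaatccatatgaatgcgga

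Gcn1 encodes a partner of the kinase that senses amino acid shortage. Gm13123 (chr4:143974347-143974838, plus strand, 492 nt) copies the end of its coding sequence with 3 differing bases, and 2 of them fall between coding bases 7530 and 7649.
Gcn1: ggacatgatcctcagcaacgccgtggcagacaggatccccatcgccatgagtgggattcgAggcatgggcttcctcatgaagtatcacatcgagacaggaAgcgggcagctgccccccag
Gm13123: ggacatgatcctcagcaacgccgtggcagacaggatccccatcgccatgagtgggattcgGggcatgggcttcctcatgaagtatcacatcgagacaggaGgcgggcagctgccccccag

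By contrast, Gm37689 (chr4:6378018-6378292, plus strand, 275 nt), a TEC gene, had no near-identical gene and shared no 100-base word with a transcript of another gene. Genes that overlap it were left out of both searches. It lies within the span of Sdcbp on the same strand, and in the M21 annotation it touches no exon of another gene on that strand. Its whole transcript is given because the fall of such genes is described below as well, and it has no capitals since there is no source to differ from.
Gm37689: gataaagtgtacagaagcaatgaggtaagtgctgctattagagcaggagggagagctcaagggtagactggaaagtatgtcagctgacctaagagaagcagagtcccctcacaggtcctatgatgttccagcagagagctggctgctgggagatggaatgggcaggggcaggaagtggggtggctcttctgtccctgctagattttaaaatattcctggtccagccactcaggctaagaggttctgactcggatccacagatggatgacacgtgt

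Most single-exon Gm genes had little or no signal. Levels are in FPKM (fragments per kilobase of transcript, corrected for library depth), scaled by the median ratio between libraries. Of the 10737 genes, 5214 (48.6%) were listed at 0 in all 6 libraries, 2373 were above 0 in all 6, and 859 reached the mean of 0.5 scaled FPKM required for a test. A mean of 0.5 was reached in the GFP-positive group by 682 genes and in the GFP-negative group by 995, of which 595 reached it in both. Of the tested genes, 385 were TEC genes, 347 processed pseudogenes, 91 long noncoding RNAs, 22 annotated as protein coding, 8 other pseudogenes, and 6 had no match in M21. Processed pseudogenes formed the largest class overall with 6886 genes, so a smaller share of them was tested than of the 2699 TEC genes. The counts below cover the genes that passed this filter, and a gene of low level can pass it through the group in which it is high.

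The libraries differed in depth and in marker levels. They held 8.25 to 11.85 Gb of aligned bases, more in each GFP-positive than in each GFP-negative library. Of 19 Sertoli cell markers, 17 were tested, 2 were higher (Dmrt1 and Trf), 3 were lower (Sox9, Gata4 and Gdnf) in GFP-positive libraries, and Rhox5 and Rhox8 stayed under the filter. Of 14 germ cell markers, 9 were tested, 6 were higher, none was lower, and Prm1 and Prm2 were at 0 in every library. Their summed level was 137 to 183 FPKM in GFP-positive and 93.1 to 102 in GFP-negative libraries, the latter almost all from Uchl1, which was not called (-0.90, adjusted p = 0.228). Without Uchl1 it was 164, 38.8 and 67.2 FPKM in GFP-positive 2, 4 and 7 and 2.23, 2.13 and 3.79 in GFP-negative 9, 11 and M. The summed level of 4 fibroblast markers was 736 FPKM in GFP-negative 11 and 155 in GFP-negative M, against 10.8 to 19.7 in the other libraries. These 2 sums came mostly from Col1a1, with 694 and 143 FPKM. Col1a1 and Pdgfrb were lower, while Pdgfra (-1.63) and Dcn (0.96) were not called and pointed in opposite directions. Tested were 5 of 5 peritubular myoid, 4 of 5 Leydig, 2 of 4 macrophage and 1 of 2 endothelial markers. None of those tested was higher, and 2, 1, 1 and 0 of them were lower. Levels were also summed over all listed markers of each type, in GFP-positive and then GFP-negative libraries. They were 48.6 to 470.1 and 135 to 536 FPKM for the myoid and 37.5 to 88.3 and 74.7 to 90.6 for the Leydig markers. The sums were 1.62 to 2.21 and 3.47 to 7.83 for the macrophage and 3.21 to 6.12 and 7.30 to 11.7 for the endothelial markers. The part of these differences in the results below was not tested, and in bulk RNA fewer cells of a type and less RNA per cell cannot be told apart.

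Single-exon Gm genes changed in both directions. Of 859 tested, 62 were higher (7.22%) and 114 lower (13.3%) in GFP-positive libraries at an adjusted p under 0.05 (limma, Benjamini-Hochberg over all 15304 genes tested). Over all genes tested, 30.2% were called, 16.6% as higher and 13.7% as lower. The share of lower calls was thus near the background, and the share of higher calls was below it. The median log2 difference of the single-exon Gm genes was -0.37, against 0.03 over all genes tested. Levels of the 2 groups did not overlap for 364 of them, 106 higher and 258 lower, while 47.6% of all genes tested did not overlap. Both conditions, a call and no overlap, were met by 175, and by 29.9% of all genes tested. The 12 largest rises reached up to 3.06 on the log2 scale and the 12 largest falls down to -1.98.

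These counts depended on single libraries and on scaling. With GFP-negative M left out, 7 genes were higher and 0 lower (limma; 180 had an unadjusted p under 0.05), and with GFP-positive 7 left out there were 8 and 4. The split of 62 higher and 114 lower became 54 and 170 under quantile normalization, 9 and 235 after removal of the trend with transcript length, and 10 and 536 with equal sums of FPKM, a scaling that moved the median of all genes to -0.85.

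Called TEC genes were all lower. Of 385 tested, 0 were higher and 73 lower, with a median of -0.55, and 1 became higher without GFP-positive 2 or without GFP-positive 4. A mean of 0.5 FPKM was reached by 235 TEC genes in the GFP-negative group only and by 9 in the GFP-positive group only. Without a filter, 0 were higher and 13 lower among 2008, with a median of -0.10. The count of 73 and the median of -0.55 thus hold for the TEC genes that passed the filter. Of the processed pseudogenes, 47 were higher and 26 lower among 347, with a median of 0.06. Position divided the pseudogenes: 166 that overlapped no other gene had 31 higher and 7 lower calls (median 0.34), 48 that overlapped a gene on the opposite strand only had 11 and 0 (0.48), and 133 within the span of a gene on the same strand had 5 and 19 (-0.48). For these 133 the share of lower calls (14.3%) was near the 13.7% of all genes tested. Their share of higher calls (3.76%) was below the 16.6% of all genes. In contrast to the pseudogenes in same-strand spans, the 214 outside them thus had 42 higher (19.6%) and 7 lower calls and a median of 0.39, a share of higher calls near the 16.6% of all genes tested. The 42 became 3, and the 7 became 0, on leaving out GFP-negative M or GFP-positive 7. That direction did not hold under every scaling: the median of the 214 fell to -0.34 (3 higher, 35 lower) when the length trend was removed and, over 212 genes, to -0.31 (5 higher, 45 lower) with equal sums of FPKM. Against the shifted median of all genes of -0.85, the latter value is still the higher one.

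**Figure D1:**
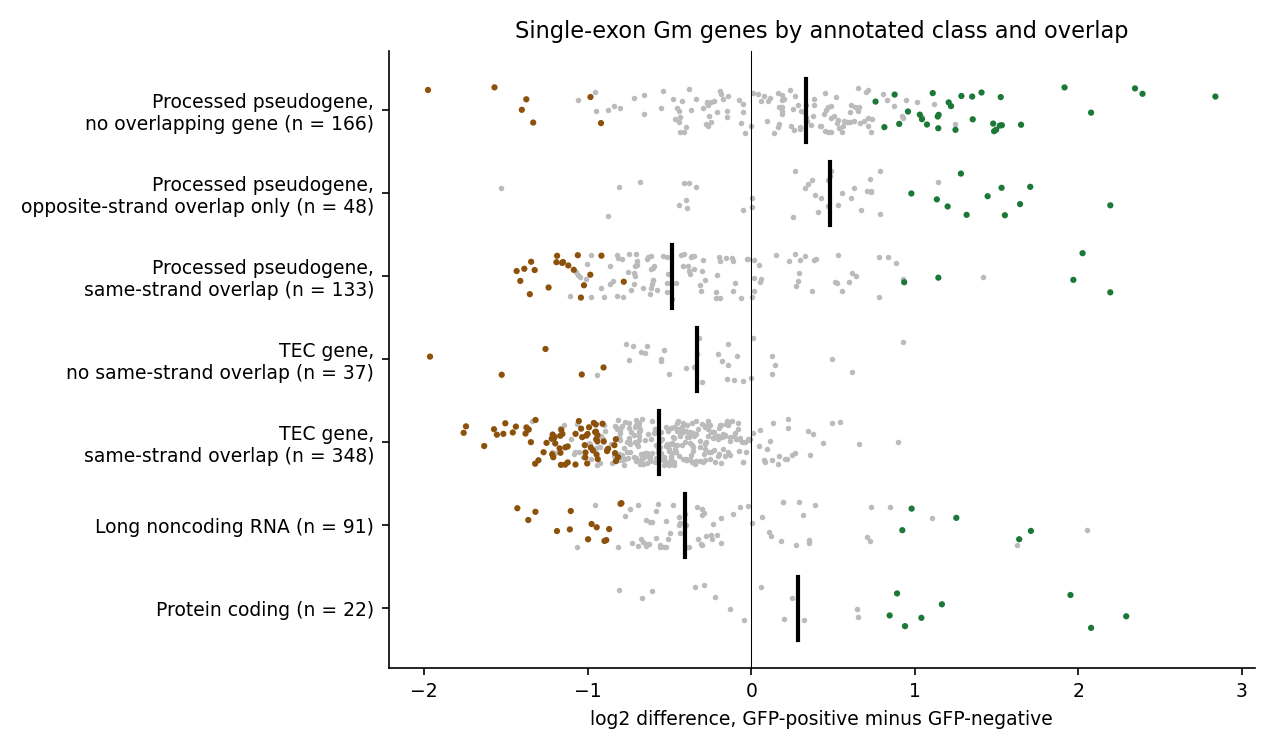
Each point is 1 tested single-exon Gm gene, placed by its log2 difference (GFP-positive minus GFP-negative, horizontal axis) in rows by annotated class and overlap with other genes; green points were called higher, brown points lower, grey points not called, and black bars are medians. Called TEC genes lie to the left of 0 in both rows, while processed pseudogenes outside same-strand spans have medians of 0.34 and 0.48 and most of the green points.

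Copies of ribosomal protein genes were the largest family by source. A source gene is here the best-matching transcript of an ordinary gene, with at least 80% identity over at least 50% of the Gm gene. Cytosolic ribosomal protein genes were the source of 1117 single-exon Gm genes, of which 100 were tested, with 19 higher, 4 lower and a median of 0.43. Most were thus not called, and the share of higher calls was near the 16.6% of all genes tested. The median turned to -0.31 without the length trend and to -0.40 with equal sums of FPKM. The ribosomal protein genes themselves were higher in 63 of 83 tested, with 0 lower and a median of 1.47. The copies thus had a smaller median difference than their sources. Without GFP-negative M, 1 of the copies was higher and 0 were lower.

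The 3 copies of Rpl21 were among the 12 largest rises. Gm13370 reached 102, 51.0 and 61.4 FPKM in GFP-positive 2, 4 and 7 and at 31.4, 9.20 and 10.5 in GFP-negative 9, 11 and M, a log2 difference of 2.20 (SE 0.47, adjusted p = 0.0135). Gm10163 had 102, 51.0 and 61.4 against 31.3, 9.17 and 10.6 FPKM, also 2.20. Gm10240, with the same letters, had 80.2, 39.4 and 47.2 against 24.1, 8.17 and 9.04 FPKM, a log2 difference of 2.08 (SE 0.44, adjusted p = 0.0131). GFP-positive 2 was the highest and GFP-negative 11 the lowest library for each, and the groups did not overlap. Rpl21 itself ran in the same order, from 249 FPKM in GFP-positive 2 to 24.99 in GFP-negative 11 (log2 difference 2.47, SE 0.36, adjusted p = 0.00622). With 60 near-identical genes each, the levels of these copies are uncertain.

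Gm15772, the Rpl26 copy shown above, had 471, 280 and 479 FPKM in the GFP-positive libraries and 129, 120 and 75.2 in the GFP-negative ones. Its log2 difference of 1.92 (SE 0.35, adjusted p = 0.00978) was close to that of Rpl26, 1.93 (SE 0.40). All GFP-positive libraries lay above all GFP-negative ones. Gm49594, a copy of Rpl15 with 1 differing base (chr16:33827213-33827827, minus strand, within the span of Kalrn), rose from 56.3, 26.0 and 24.6 to 154, 135 and 121 FPKM (log2 difference 2.03, SE 0.35, adjusted p = 0.00865). Kalrn, which encodes a guanine nucleotide exchange factor and spans this copy, was lower (-1.71, adjusted p = 0.0247), the opposite direction. Gm2000 (chr1:156193610-156194054, plus strand), annotated as protein coding and 99.6% identical to Rpl35, had 56.2, 43.1 and 45.9 FPKM against 15.6, 9.78 and 8.70 (2.08, SE 0.28, adjusted p = 0.006).

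Not every ribosomal protein copy moved. The 14 tested copies of Rps2, the source with the most tested copies, had 0 higher and 0 lower calls and a median of -0.08, and Rps2 was not called either (0.58, adjusted p = 0.41). The 7 tested copies of Rpl29 had no call with a median of 0.61, although Rpl29 rose (1.40, adjusted p = 0.0186). Gm8730, a copy of Rplp0, the ribosomal stalk protein gene, differed from its source at 12 bases (chr8:103591477-103592430, minus strand). Its levels were 193, 336 and 193 FPKM against 195, 169 and 127, so its groups overlapped (0.52, SE 0.34, adjusted p = 0.257), while Rplp0 was higher (1.15, adjusted p = 0.0375).

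Processed pseudogenes of all other sources had 24 higher and 16 lower calls among 194, with a median of 0.01, and their share of higher calls (12.4%) was below the 16.6% of all genes tested. The copies described next were named for large rises or high levels. Gm10108, the cytochrome c copy shown above, had 40.9, 30.1 and 35.3 FPKM in GFP-positive 2, 4 and 7 and 16.3, 2.43 and 5.87 in GFP-negative 9, 11 and M (log2 difference 2.39, SE 0.54, adjusted p = 0.0161). Its level was 23.4% to 43.3% of that of Cycs in every library, and Cycs rose by a similar amount (2.50, SE 0.44). Gm10259 (chr3:25265180-25266769, minus strand) and Gm10184 (chr17:90215890-90217877, minus strand) are copies of Kpna2, which encodes an importin that carries proteins into the nucleus. Gm10259 had 12.7, 13.4 and 24.3 FPKM against 2.72, 1.91 and 3.94 (2.35, SE 0.34, adjusted p = 0.00623). The values of Gm10184 were nearly the same (12.3, 13.1 and 23.5 against 2.91, 1.94 and 3.75 FPKM; 2.29, SE 0.33), and Kpna2 rose by 2.14. GFP-positive 7 was the highest library for both copies and for their source.

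Gm10123, identical to Ppia, the cyclophilin A gene, over its whole length (chr9:96777711-96778200, plus strand), had 42.7, 73.8 and 73.9 FPKM against 30.1, 18.4 and 18.4 (1.49, SE 0.32, adjusted p = 0.0136), and Ppia rose by 1.57. Gm12481, identical to Serf2 over its length (chr4:43664043-43664339, plus strand), had 124, 161 and 144 FPKM against 86.5, 30.5 and 42.3 (1.55, SE 0.38, adjusted p = 0.0201), a call lost under 8 of 18 alternatives (adjusted p from 0.00248 to 0.309). This copy was listed at 139% to 194% of the level of Serf2, that is, above the gene whose sequence it shares. Fam221b, on the opposite strand, was also higher (1.11, adjusted p = 0.03).

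The largest rise was that of Gm28438, the nuclear copy of mt-Nd3. It had 1232, 709 and 859 FPKM in GFP-positive 2, 4 and 7 and 610.3, 23.8 and 87.6 in GFP-negative 9, 11 and M (3.06, SE 0.97, adjusted p = 0.044). The groups did not overlap, but GFP-negative 9 lay close to GFP-positive 4. Its level was 99.2% to 103% of that of mt-Nd3 in every library, with which it shared 98.8% of its 100-base words. The call was lost under 12 of 18 alternatives, the adjusted p ranging from 0.0023 to 0.418.

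For 3 of the 12 largest rises no sequence could be searched for a source, because their transcripts had no M21 counterpart of the same length. Gm6969, a processed pseudogene that overlaps no gene (chr12:24688668-24689054, minus strand), had 31.5, 47.0 and 61.8 FPKM against 9.83, 8.61 and 2.25 (2.84, SE 0.50, adjusted p = 0.00904). Gm2296, without a match in M21 and so without a known class, had 6.86, 15.7 and 15.1 FPKM against 2.80, 2.34 and 1.19 (2.29, SE 0.39, adjusted p = 0.00833). Gm6166 (chr9:57391246-57391911, plus strand) had 7.16, 5.54 and 5.05 FPKM against 0.581, 0.984 and 2.17 (1.97, SE 0.36, adjusted p = 0.00955). Within each of these 3 genes every GFP-positive library lay above every GFP-negative one.

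**Figure D2:**
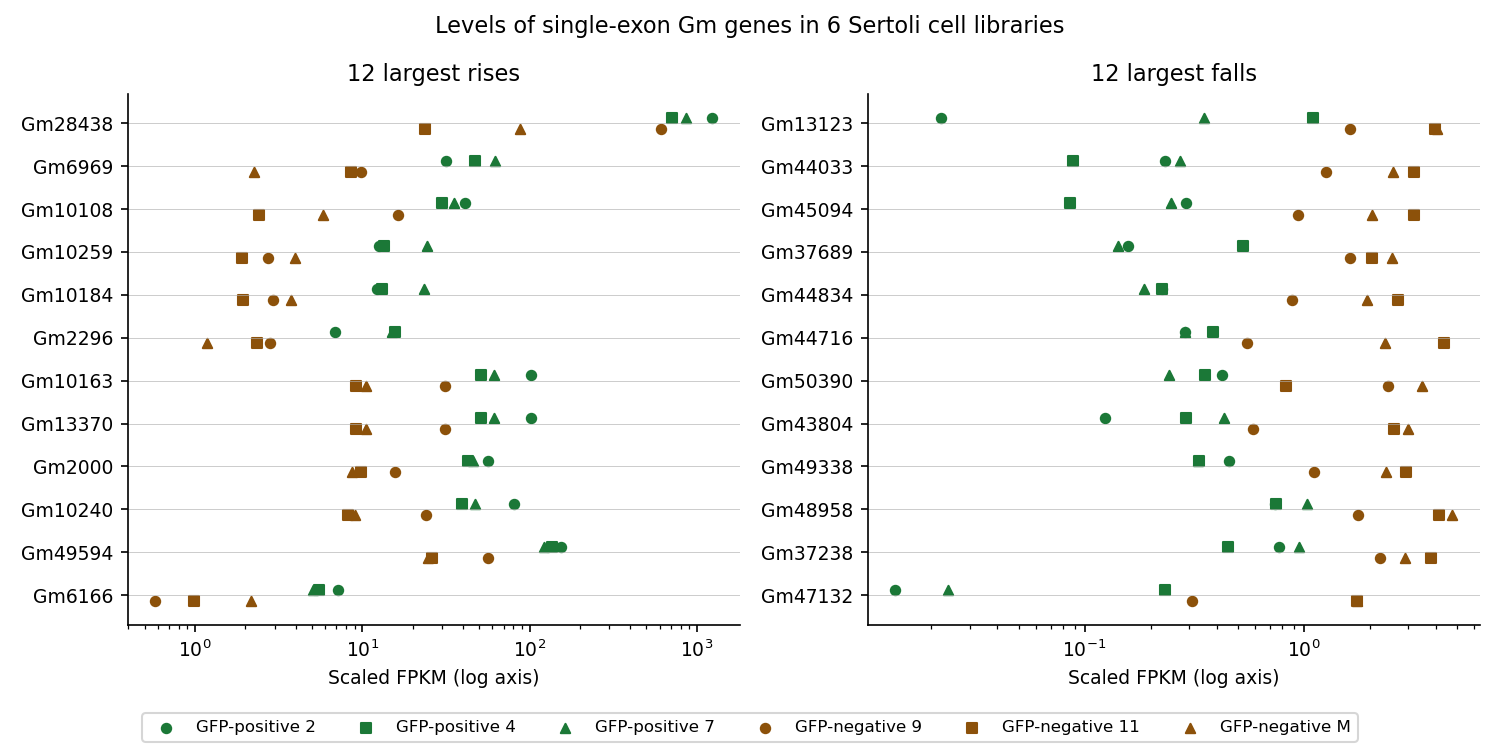
Scaled FPKM on a log axis of the 12 single-exon Gm genes with the largest rises (left) and the 12 with the largest falls (right) among called genes whose groups did not overlap; each symbol is 1 library, green for GFP-positive and brown for GFP-negative. In every row the green symbols lie on 1 side of the brown ones, which is part of how the rows were chosen, and the rises run at levels of up to 1232 FPKM while the falls stay under 5.

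Differences of the copies were set beside those of their sources, by the share of sequence in common. For 313 pairs from 198 source genes the log2 differences of Gm gene and source had a Pearson correlation of 0.63 (Spearman 0.61), as a description across genes that share libraries and, in part, reads. It was 0.88 (0.89) over 134 pairs that share at least 50% of the 100-base words of the Gm gene with the source, 0.65 (0.61) over 123 pairs with fewer, and 0.36 (0.33) over 56 pairs with none. Position moves with this division: 44 of the 56 pairs without a shared word lay in same-strand gene spans (Pearson correlation 0.26, Spearman 0.29). The 12 outside them had 0.63 (Spearman 0.49). Beside the pairs that share fewer words, their Pearson value was near and their Spearman value lower. The median difference between Gm gene and source was -0.21, -0.60 and -1.34 in these 3 sets, the Gm gene being the lower one. The median level of the Gm gene was 5.65%, 0.728% and 0.609% of that of its source. Of the 48 higher calls among all pairs, 43 had a source that was also higher, 5 a source that was not called, and 0 a source that was lower. Of the 23 lower calls, 12 had a lower source, 6 one that was not called and 5 a higher one, and 89 copies that were not called had a higher source. Since mapped reads can pass between such copies and their sources, the 2 levels are not separate measurements.

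**Figure D3:**
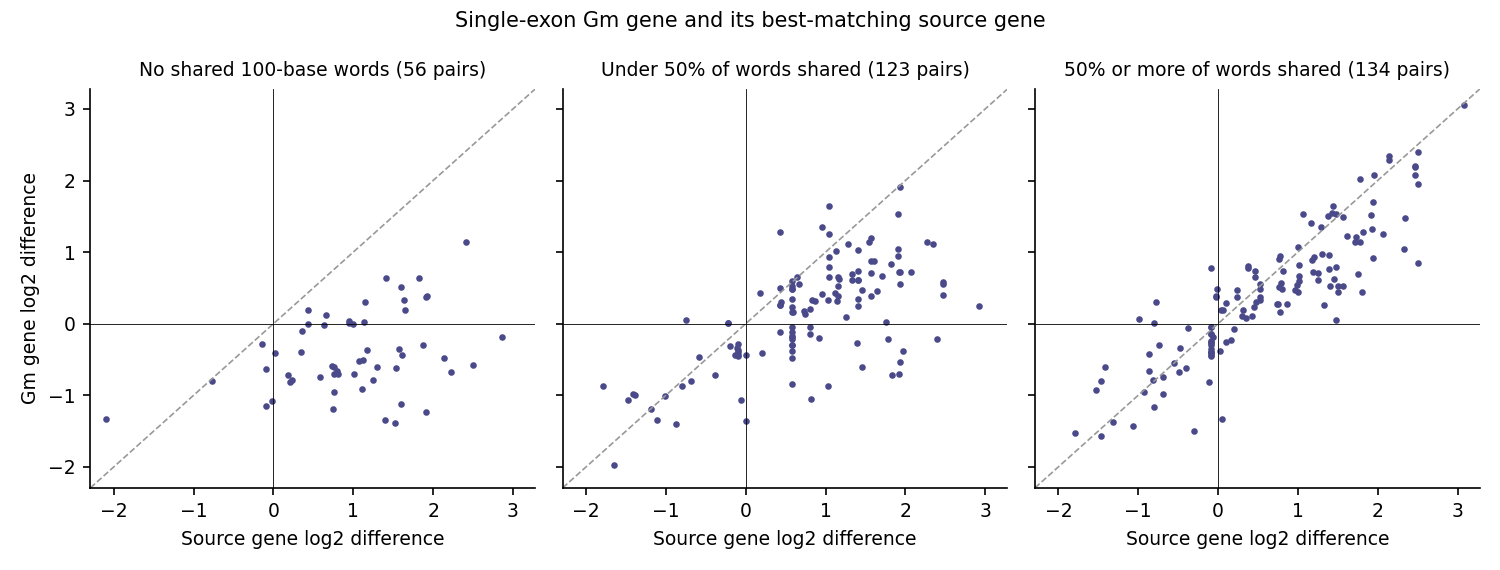
Log2 difference (GFP-positive minus GFP-negative) of each single-exon Gm gene on the vertical axis against that of its source gene on the horizontal axis, in panels by the share of the Gm gene's 100-base words found in transcripts of the source; the dashed line marks equal differences. Points approach the line from left to right, with Pearson correlations of 0.36, 0.65 and 0.88 across 56, 123 and 134 pairs; 44 of the 56 pairs in the left panel lie in same-strand gene spans.

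Processed pseudogenes were also divided by the words they share with any other gene that does not overlap them. Of 143 that shared at least 50% of their words, 30 were higher and 6 lower (median 0.45), of 105 with a smaller share 11 and 9 (0.14), and of 77 with none 1 and 10 (-0.52). Position moves with this division too, since 68 of the 77 without a shared word lay within a same-strand gene span, against 21 of the 143. Within same-strand spans, the medians were -0.55 with no shared word, -0.63 with a share under 50% and 0.33 with at least 50%. Among pseudogenes that overlap no gene, the medians were 0.36 over 60 with a share under 50% and 0.37 over 92 with at least 50%, so these 2 sets hardly differed there. Only 7 that overlap no gene shared no word, with 0 higher and 1 lower and a median of -0.25. Of 753 tested Gm genes of all classes with a sequence to search, 475 had no near-identical gene (95% identity over at least 50% of the length). Genes that overlap the Gm gene were left out of this search. Of these 475, 4 were higher (0.842%) and 83 lower (17.5%), with a median of -0.54.

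TEC genes lay mostly inside longer genes. Of the 385 tested, 348 lay within the span of a gene on the same strand, with 0 higher, 68 lower (19.5%) and a median of -0.57. Over all genes tested, 13.7% were lower. Without a filter, TEC genes in same-strand spans had 0 higher and 10 lower calls among 1263, with a median of -0.22. In the M21 annotation 328 of the 348 touched no exon of another gene on that strand, and 0 of them were higher and 64 lower (19.5%). The 20 that did touch an exon had 0 and 4. Outside same-strand spans the numbers were small, with 0 higher and 2 lower of 21 without any overlap and 0 and 3 of 16 with an overlap on the opposite strand only. Levels were low: the sum over all genes of the class was 464, 371 and 542 FPKM in GFP-positive 2, 4 and 7 and 717, 923 and 884 in GFP-negative 9, 11 and M. The groups did not overlap in this sum. Calls in this class were few without some libraries, with 0 lower in the absence of GFP-negative M and 4 without GFP-positive 7, and 126 without GFP-negative 9. The median stayed negative under the 18 alternatives, between -1.17 with equal sums of FPKM and -0.10 without a filter.

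Among the 12 largest falls, 10 were TEC genes. Gm37689, shown above, had 0.158, 0.529 and 0.142 FPKM in GFP-positive 2, 4 and 7 and 1.62, 2.04 and 2.53 in GFP-negative 9, 11 and M (-1.74, SE 0.30, adjusted p = 0.00898). The gene that spans it, Sdcbp, which encodes the adaptor protein syntenin, pointed the other way with 101, 77.8 and 98.9 FPKM against 73.1, 38.9 and 40.1 (0.91, SE 0.31, adjusted p = 0.054). Gm45094, within the span of Cebpg, a transcription factor gene (chr7:34752400-34753016, minus strand), had 0.291, 0.0854 and 0.248 FPKM against 0.939, 3.17 and 2.04 (-1.76, SE 0.37, adjusted p = 0.0133). Cebpg was not called (-0.44, adjusted p = 0.435).

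Other falls came with a lower spanning gene. Gm44834 (chr7:75131747-75133142, plus strand) lies in Akap13, which encodes a kinase anchoring protein. It had 0.226, 0.225 and 0.187 FPKM against 0.883, 2.70 and 1.95 (-1.63, SE 0.35, adjusted p = 0.0131), and Akap13 had 21.1, 21.2 and 21.7 against 60.01, 39.2 and 53.9 (-1.22, adjusted p = 0.0118). Gm48958 (chr14:47130977-47137097, plus strand), at 6121 nt the longest of the 12, lies in Samd4, an RNA-binding protein gene. It fell from 1.76, 4.16 and 4.74 to 0.736, 0.747 and 1.03 FPKM (-1.52, SE 0.36, adjusted p = 0.0175), and Samd4 fell by 1.18 on the log2 scale (adjusted p = 0.0166). Gm43804 in Lhfp (chr3:53017089-53017544, plus strand; -1.56, adjusted p = 0.0334) and Gm47132 in Foxn3, a forkhead factor gene (chr12:99342855-99343507, minus strand; -1.46, adjusted p = 0.0355), also had a lower spanning gene, Lhfp by -1.68 and Foxn3 by -0.92. GFP-negative 9 was the lowest GFP-negative library for these 4 Gm genes, whereas of their spanning genes Lhfp was lowest there and Akap13 highest.

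The remaining falls of this class lay in genes that were not called or on the opposite strand. Gm44716 in Col4a1, a basement membrane collagen gene (chr8:11340558-11341267, minus strand), had 0.288, 0.387 and 0.288 FPKM against 0.551, 4.36 and 2.34 (-1.57, SE 0.50, adjusted p = 0.0451), a call lost under 8 of 17 alternatives (adjusted p from 0.00328 to 0.157), among them 5 of the 6 that leave out 1 library. Col4a1 was also highest in GFP-negative 11 and missed the threshold (-1.25, adjusted p = 0.0606). Gm37238 (chr13:48696120-48698509, minus strand; -1.50, adjusted p = 0.0113) lies in 6720427I07Rik, whose difference was 0.69 (adjusted p = 0.138). Gm44033 (chr6:113695545-113696415, plus strand) lies opposite Ghrl, the ghrelin gene, and had 0.234, 0.0883 and 0.273 FPKM against 1.27, 3.20 and 2.54 (-1.97, SE 0.34, adjusted p = 0.00862). Gm49338 (chr9:45769902-45771980, minus strand; -1.53, adjusted p = 0.0144) lies opposite Bace1, which encodes beta-secretase and was lower as well (-0.95, adjusted p = 0.0165). Whether the assembly used the strand of the reads is unknown here, so reads of the 2 strands may have been mixed.

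Most spanning genes of the class were not called, and those called were mostly lower. In 341 pairs of a TEC gene and the tested gene that spans it (237 spanning genes), 125 had a lower and 7 a higher spanning gene, and in 209 it was not called. The median log2 difference was -0.57 for the Gm genes and -0.59 for the spanning genes, and the median level of the Gm gene was 8.61% of that of the spanning gene. The Pearson correlation of the 2 differences was 0.31 (Spearman 0.32), across pairs that share libraries and, in part, spanning genes. Of the 66 lower Gm genes, 35 had a lower spanning gene, 31 one that was not called, and 0 a higher one. Lower Gm genes were thus 35 of the 125 with a lower spanning gene and 31 of the 209 with an uncalled one, a smaller share of the latter. For processed pseudogenes in such spans the correlation was -0.14 over 115 pairs.

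**Figure D4:**
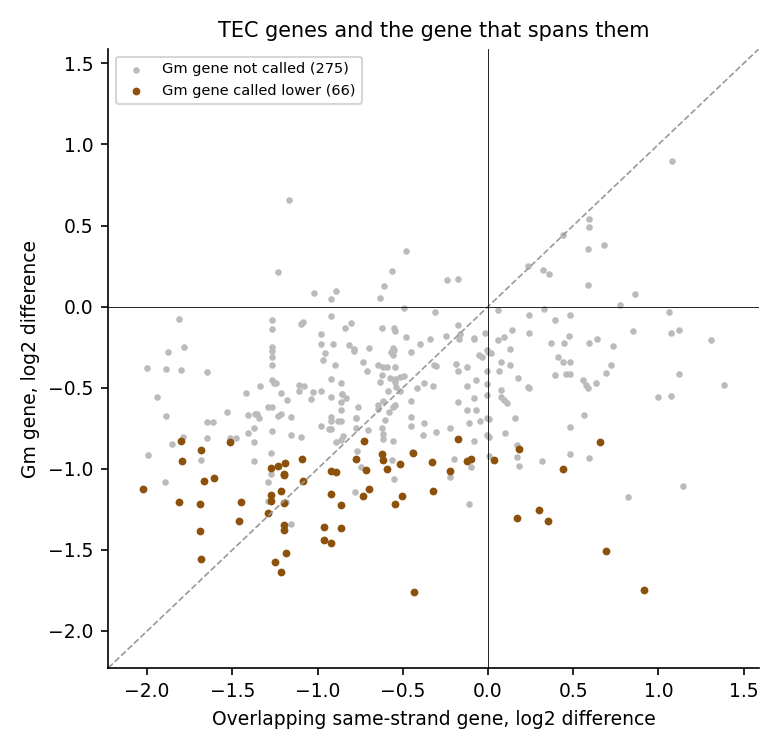
Log2 difference of 341 TEC genes (vertical axis) against that of the gene that spans them on the same strand (horizontal axis); brown points are the 66 called lower, grey points the 275 not called, and the dashed line marks equal differences. Most points lie below 0 on the vertical axis on both sides of 0 on the horizontal axis, and the correlation is 0.31.

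Several spanning genes held many tested Gm genes of any class. Auts2, a long gene linked to brain development, and Magi3, a scaffold protein gene, held 9 each, and no member of either set was called. Auts2 itself was lower, with 2.88, 2.13 and 2.53 FPKM against 4.42, 9.31 and 7.25 (-1.27, adjusted p = 0.0189), while its 9 Gm genes had a median of -0.31. Magi3 was not called (-0.30, adjusted p = 0.481), and its Gm genes had a median of -0.40. Dip2c held 7 with 1 lower, and Camk2d, Cers6 and Tcf12 held 6 each, with 1, 2 and 0 lower. Of these spanning genes Camk2d was lower (-0.92), and Dip2c, Cers6 and Tcf12 were not called. Cdk14, also not called, held 5 with 2 lower. Apbb2 held 5, and all 5 were lower, with log2 differences from -1.38 to -1.03, beside -1.20 for Apbb2 (adjusted p = 0.0194). Med13l held 5, of which 3 were lower (median -1.03), and was lower itself (-1.28, adjusted p = 0.023). Gm genes in 1 span can share a precursor RNA and are not separate observations.

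The 2 falls outside this class were copies of genes that were lower. Gm13123, the Gcn1 copy shown above, had 0.0221, 1.10 and 0.350 FPKM in GFP-positive 2, 4 and 7 and 1.62, 3.98 and 4.06 in GFP-negative 9, 11 and M (-1.98, SE 0.47, adjusted p = 0.018). Gcn1 had 7.44, 15.3 and 11.1 against 20.3, 49.5 and 43.1 FPKM (-1.65, adjusted p = 0.018), and in both the order of the 3 GFP-positive libraries was the same. Gm50390, a copy of Dst with 2 differing bases (chr18:87869574-87870164, minus strand), had 0.425, 0.355 and 0.242 against 2.42, 0.832 and 3.46 FPKM (-1.57, SE 0.41, adjusted p = 0.023). Dst, which encodes the cytoskeletal linker dystonin, fell by 1.46 (adjusted p = 0.0103), with GFP-negative 11 again the lowest of its group.

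Copies of Gapdh, the glycolytic dehydrogenase gene, made up the second largest family, with 277 genes and 22 tested. Of these 0 were higher and 1 was lower, with a median of -0.36 and a range from -1.15 to 0.78. Gapdh was not called (-0.09, adjusted p = 0.842). The highest of them, Gm13394 (chr2:28823622-28824621, minus strand), differs from Gapdh at 1 base and had 187, 152 and 193 FPKM against 85.8, 89.8 and 140 (0.78, SE 0.30, adjusted p = 0.0752). Its groups did not overlap, while those of Gapdh did (296, 386 and 285 against 417, 347 and 274 FPKM). Its sign turned to -0.24 with equal sums of FPKM. Gm13394 lay at 20.6% to 67.8% of the level of Gapdh, so the share listed under this copy varied between libraries.

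The other members with high levels did not pass the test. Gm12715, a copy of the cytoplasmic actin gene Actg1 (chr4:103420599-103421726, plus strand), had 105, 237 and 180 FPKM against 124, 137 and 121 (0.38, adjusted p = 0.41). Gm15459, a copy of the chaperone gene Hspa8 (chr5:5831615-5833555, minus strand), had 152, 92.4 and 80.3 against 95.1, 112 and 124 (-0.08, adjusted p = 0.866). Gm7329, a copy of the malic enzyme gene Me1 (chr1:65134386-65134595, plus strand), had 99.96, 77.8 and 76.6 against 122, 43.9 and 74.9 FPKM (0.19, adjusted p = 0.721). Groups overlapped for all 3 of these copies, and each had at least 3 near-identical genes.

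For 3 further families the member with the highest level was also not called. Gm17383, a copy of the alpha tubulin gene Tuba1b (chr18:82356587-82357941, plus strand), had 14.6, 39.9 and 33.6 FPKM against 15.1, 16.1 and 15.1 (0.79, adjusted p = 0.128). Gm13456, a copy of the elongation factor gene Eef1a1 (chr2:40445764-40447128, plus strand), had 12.1, 8.49 and 8.91 against 8.14, 7.75 and 9.39 (0.20, adjusted p = 0.546). Gm13577, a copy of the chromatin protein gene Hmgb1 (chr2:64305089-64305293, minus strand), had 2.81, 1.85 and 3.46 against 0.971, 2.39 and 1.57 (0.60, adjusted p = 0.196), with 30 near-identical genes.

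Of the 10 members with the highest mean, 1 was a long noncoding RNA. Gm28967 (chr6:125163324-125163716, minus strand), had 568 FPKM in GFP-positive 2 but 13.2 and 22.3 in GFP-positive 4 and 7, and 18.5, 72.5 and 3.84 in GFP-negative 9, 11 and M. Its difference of 1.63 (SE 1.41, adjusted p = 0.392) was that of 1 library, and without GFP-positive 2 it was -0.04. In M21 the gene overlaps exons of Ncapd2, which encodes a condensin subunit, and of Scarna10, a small Cajal body-specific RNA gene. The summed level of long noncoding members was 803 FPKM in GFP-positive 2 and 228 to 352 in the other libraries.

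The 91 tested long noncoding members had 5 higher (5.49%) and 14 lower calls (15.4%), with a median of -0.40. Over all genes tested, 16.6% were higher and 13.7% lower. In same-strand spans the counts were 0 and 7 (13.7%) of 51. The 22 tested members annotated as protein coding had 8 higher (36.4%) and 0 lower calls, with a median of 0.28. That median turned to -0.21 without the length trend and -0.28 with equal sums of FPKM. The 8 included Gm2000 and Gm10184, described above, and Gm10053, a second copy of Cycs (1.95, adjusted p = 0.0133). The summed level of all members of this class was 209, 197 and 193 FPKM in GFP-positive 2, 4 and 7 and 103, 68.9 and 92.0 in GFP-negative 9, 11 and M, without overlap under this scaling.

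**Figure D5:**
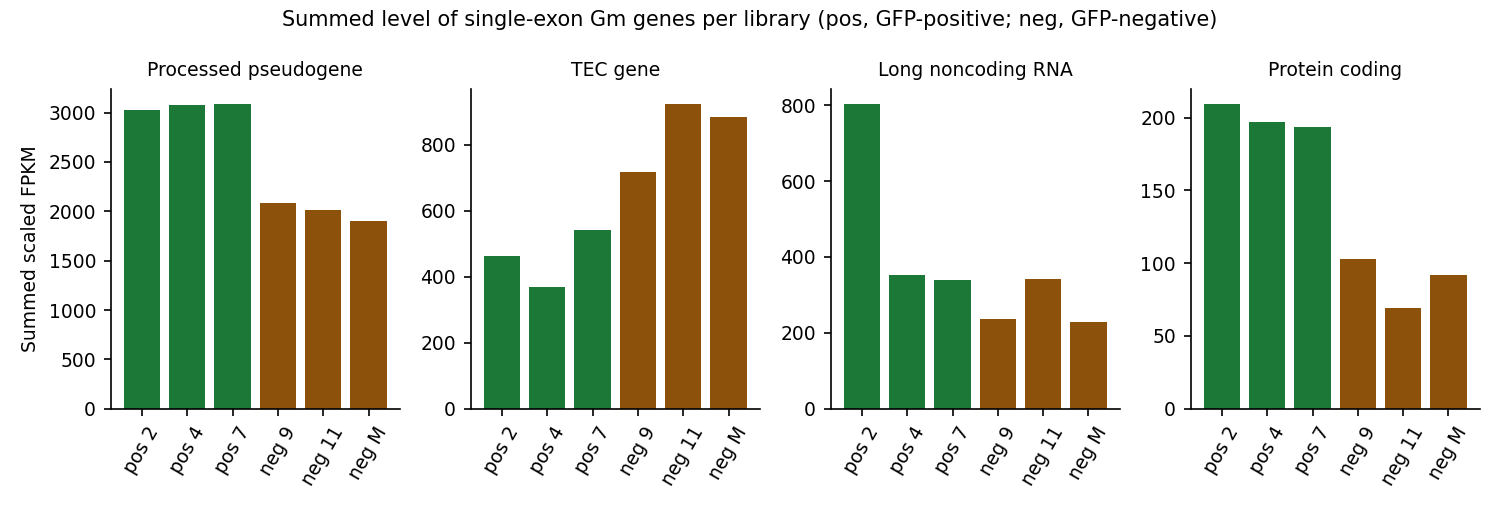
Bars give the summed scaled FPKM (vertical axis, from 0, a separate scale in each panel) of all single-exon Gm genes of a class in each of the 6 libraries, green for GFP-positive and brown for GFP-negative. Processed pseudogenes sum to 3028, 3079 and 3084 FPKM in GFP-positive and 2085, 2016 and 1900.1 in GFP-negative libraries, TEC genes show the opposite order, and GFP-positive 2 stands apart for long noncoding RNA. The sums depend on the scaling and are not shares of all FPKM in a library.

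At 0.5 FPKM or more, 696, 593 and 762 were present in GFP-positive 2, 4 and 7 and 863, 1071 and 1049 in GFP-negative 9, 11 and M, although the GFP-negative libraries were shallower. The sum over processed pseudogenes ran the other way, as the plot of sums by class shows. Such sums depend on the scaling. Over all classes they were 5820, 4781 and 5101.5 FPKM in GFP-positive 2, 4 and 7 and 3967, 3426 and 3340 in GFP-negative 9, 11 and M. As a share of all FPKM in a library, they were 0.997%, 0.611% and 0.735% against 0.947%, 1.10% and 1.16%. The group order of the sums thus did not hold for the shares. Around the length minimum, of 91 single-exon Gm genes of 190 to 199 nt 1 reached a mean of 0.5 FPKM, and of 87 of 200 to 209 nt 4 did. Just under the filter of 0.5 FPKM lay Gm45532 with a mean of 0.499, and just above it Gm4332 with 0.5001.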

How the data were processed

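Total RNA-seq of 6 libraries was used. Per the labels' protocols, ribosomal RNA was removed and libraries were strand-specific (dUTP). Trimmomatic, HISAT2, StringTie and mm39 are named in the submitters' processing notes. The deposited tables hold the authors' FPKM and mean coverage (a signal per base) of 153503 transcripts, per the file headers. The handling of reads that match several places is unknown. FPKM was summed per gene name. Unnamed isoforms at a locus with 1 name on the strand were added to other genes but not to single-exon Gm genes, and 1425 transcripts (1.63% to 6.34% of FPKM) were left out. Depth is coverage divided by FPKM. Intervals from counting are not given, since the tables hold no read counts.

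After scaling by the median of ratios, genes with a mean of at least 0.5 scaled FPKM were compared on the scale log2(scaled FPKM + 0.5) by limma 3.58.1 in R 4.3.3 (eBayes with a trend), as GFP-positive minus GFP-negative. P-values were adjusted by Benjamini-Hochberg over 15304 genes, with a threshold of 0.05. Such fold changes understate those of low genes. The script was tested on simulated data. Classes, exons and sequences came from GENCODE M21 (GRCm38) by transcript identifier, sequences only at equal length (10305 members, 753 of them tested). Sources were found with blastn 2.17.0 (word size 28, 80% identity over 50% of the gene), shared 100-base words by exact match on either strand. Genes whose span overlaps a member on either strand were left out of both searches for that member.

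Members and lists were chosen with earlier results of these data known. Named are the 12 largest rises and falls among called genes whose groups do not overlap, the 10 highest means, the top member of each of the 6 largest source families, and their sources. Gm10053, the spanning genes, Rps2, Rpl29, Gm45532 and Gm4332 were singled out after their values were seen. Markers were lists of Sertoli, germ, peritubular myoid, Leydig, fibroblast, macrophage and endothelial genes. Counts were recomputed under 19 other settings or subsets, and 1 more was added after seeing the data.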

Additional observations from a re-analysis of the deposited data

How the results depend on the processing

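The count of higher genes (62), of lower genes (114), their median (-0.37) and the number of the 27 called named genes that stayed called in the same direction were recomputed. Without a filter, 28 were higher and 33 lower among 5523, the median was -0.040 and 11 named calls passed. At a filter of 1 FPKM, 60 were lower among 441. Equal sums of FPKM gave 10 and 536 (median -1.04, all genes -0.85), removal of the length trend 9 and 235 (median -0.70, 17 named calls). Leaving out 1 library at a time gave 7 to 69 higher, 0 to 195 lower and 6 to 27 named calls, and medians of -0.43 to -0.30. The lowest values, 7, 0 and 6, came without GFP-negative M, and the highest counts without GFP-negative 9. Without GFP-negative 11 and M together, an alternative chosen after seeing the data, limma called 0 and 0 (105 had an unadjusted p under 0.05), the median was -0.20 and 0 named calls passed. Among genes without a same-strand overlap 56 were higher and 19 lower, and the median reversed to 0.25, while those without a near-identical gene had 4 higher and a median of -0.54. The cause of these changes was not tested, except that fewer genes enter the subsets and more enter without a filter.

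Some uncalled genes changed sign. With equal sums of FPKM the log2 differences were -0.64 for Gm12715, -0.24 for Gm13394, -0.77 for Gm13456, -0.22 for Gm13577, -0.21 for Gm17383, -0.83 for Gm7329 and -0.50 for Gm8730. Without the length trend they were -0.15 for Gm12715, -0.26 for Gm13456, -0.56 for Gm13577, -0.97 for Gm7329 and -0.076 for Gm8730, and under quantile normalization -0.35 for Gm12715, -0.27 for Gm7329 and -0.26 for Gm8730. Gm15459 turned to 0.010 without GFP-positive 4 or GFP-negative M, 0.11 without GFP-positive 7 and 0.13 without GFP-negative 11 and M, Gm28967 to -0.044 without GFP-positive 2 (2.64 without GFP-positive 4), and Gm7329 to -0.18 without GFP-negative 11 (0.55 without GFP-negative 9) and -0.53 without 11 and M. Their cause was not tested. No call of a named gene reversed. No paired analysis was possible because the replicate numbers of the 2 groups (2, 4 and 7; 9, 11 and M) share none. Low levels limit the falls, most of which lay under 5 FPKM, and no depth of reads per gene is known.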
